A study of Mus musculus with 2 samples.

Results

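The RNA levels of 10 genes that code for amino acid transporters of the plasma membrane were described in common myeloid progenitors (CMP) of the mouse, marrow cells that can form both the granulocyte-macrophage and the erythroid-megakaryocyte lineages. The genes were Slc3a2, Slc7a5, Slc7a1, Slc7a6, Slc7a11, Slc1a4, Slc1a5, Slc38a1, Slc38a2 and Slc43a1. They were chosen by name, with earlier results of these data known, and found by symbol. All 10 were among the 43346 mouse gene entries of the deposited tables. The study consists of 2 libraries of total RNA, replicates 1 and 2, each starting from 100 pooled CMP that had been taken as primary cells from adult male C57BL/6J mice aged 5 to 6 weeks. The labels name no treatment and do not say how many animals gave the cells of a pool. RNA longer than 200 nucleotides was kept, and the sets of spike-in RNA were the same for both. Both libraries carry separate biosample identifiers and the same donor identifier, so the spread between these libraries may be technical. The p-values for pairs of genes rest on that spread. Those of the binomial and Fisher's exact tests between the libraries cover counting error alone. There was no second condition or cell type, so the levels were compared between genes and between the libraries.

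Most amino acids enter a cell through carriers of the solute carrier (SLC) families, which differ in the amino acids they bind and in whether they exchange, accumulate or merely equilibrate them. Several light chains of the SLC7 family, such as LAT1 from Slc7a5, reach the cell surface bound to a shared heavy chain, CD98 from Slc3a2. LAT1 swaps internal glutamine for external leucine and other large neutral amino acids. Sodium-driven carriers such as those from Slc1a5, Slc38a1 and Slc38a2 supply the glutamine, leucine and arginine are sensed by the kinase complex mTORC1 at the lysosome, and a shortage of amino acids acts through the kinase GCN2 and the factor ATF4 on many transporter genes.

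The libraries held 28916263 and 26426710 expected counts, and 3 counts in a library corresponded to 0.104 and 0.114 CPM (counts scaled to the library's total). Genes that define the sorted cell were in place. The stem cell factor receptor gene Kit was at 98.14 and 92.95 TPM (a transcript's share of all transcripts in the library, corrected for length), and Cd34 was at 74.54 and 55.4 TPM. The Fc receptor genes Fcgr2b (2.48 and 9.59 TPM) and Fcgr3 (0.64 and 4.27 TPM), which a CMP gate takes at a low level, were both higher in replicate 2, and Ly6a and Il7r, which a CMP gate leaves out, had 0 counts in both libraries. Of 22 markers of mature blood cells and other tissues, 13 had 0 counts in both libraries and 20 were under 1 TPM in both, the exceptions being Pecam1 (19.96 and 17.34 TPM) and Csf1r (10.79 and 4.63 TPM). The macrophage gene Adgre1 was at 0.02 and 0 TPM, the granule gene Camp at 0.54 and 0.22 TPM, and Alas2 and Alb, of red cells and liver, had 0 counts. The summed level of the 22 markers was 31.45 and 22.97 TPM. Their part in the transporter levels was not tested.

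Of the 10 transporter genes, 8 were at 1 TPM or more in both libraries, 1 was above that level in replicate 1 alone (Slc1a4), and 1 had no count in either (Slc7a11). Across all 21461 nuclear protein-coding genes, 44.9% reached 1 TPM in both libraries. The median of the 10 transporters was 16.4 TPM in replicate 1 and 16.8 TPM in replicate 2, and the medians of all protein-coding genes were 0.32 and 0.56 TPM. Since the 10 genes were chosen with earlier results of these data known, these shares and medians only describe them. By mean level the order was Slc1a5, Slc38a2, Slc7a5, Slc43a1, Slc38a1, Slc7a1, Slc3a2, Slc7a6, Slc1a4 and Slc7a11. Among the 9 pairs of neighbours in this order, 2 had ranges over the libraries that overlapped, Slc7a5 with Slc43a1 and Slc7a1 with Slc3a2, and these neighbours did not differ beyond their spread. Slc7a1 also overlapped with Slc7a6, which was not its neighbour and was the higher in replicate 1 (8.62 against 8.44 TPM). In bulk RNA, fewer cells with a transcript and less RNA per cell cannot be told apart.

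**Figure D1:**
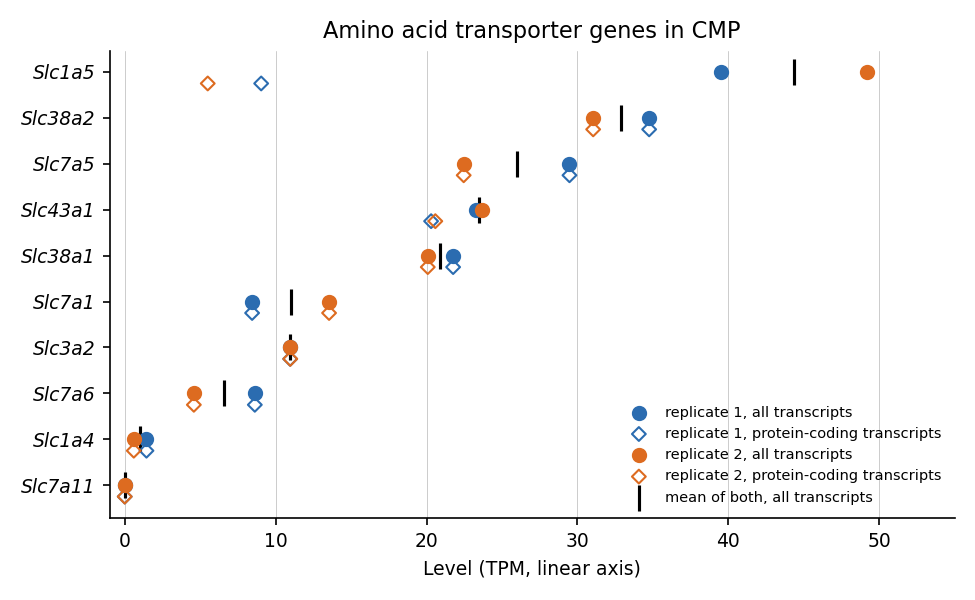
Level of each transporter gene in TPM (x axis) for replicate 1 (blue) and replicate 2 (orange). Filled circles sum all transcripts of a gene, open diamonds its protein-coding transcripts alone, and bars mark the mean of both libraries. Slc1a5 is highest by all transcripts, at 39.52 and 49.21 TPM, and its diamonds stand at 9.04 and 5.5 TPM, while Slc7a11 is at 0.

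Slc3a2 (ENSMUSG00000010095, chromosome 19, 8706882 to 8723369, minus strand, GRCm38) codes for the CD98 heavy chain. It stood at 10.96 TPM in replicate 1 and 10.97 TPM in replicate 2 (10.965 ± 0.0071 TPM, SD, n = 2), from 549 and 542 counts. The libraries gave nearly the same level, which was above that of 74.8% and 74.0% of protein-coding genes.

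Slc7a5 (ENSMUSG00000040010, chromosome 8, 121881150 to 121907694, minus strand) codes for LAT1, the light chain that carries leucine and other large neutral amino acids. It was at 29.47 TPM in replicate 1 and 22.46 TPM in replicate 2 (25.97 ± 4.96 TPM, SD, n = 2). Both values lay above both values of its heavy chain. On the scale of log2(TPM + 1), Slc7a5 exceeded Slc3a2 by 1.16 ± 0.22 (SE), a 2.23-fold difference (limma, adjusted p = 0.00397, higher in 2 of 2 libraries). Differences between genes were common in these data, and 60.2% of the 10380 genes fitted differed from Slc3a2 by the same test, 35.6% being higher and 24.5% lower. A gene on the opposite strand, Gm20388, spans the same stretch of chromosome 8 and was at 0 and 1.92 TPM. Whether the counting used strand is not given in the sources used here.

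Slc7a6 (ENSMUSG00000031904, chromosome 8, 106168857 to 106198706, plus strand) codes for y+LAT2, a light chain that exchanges cationic for neutral amino acids. It was at 8.62 TPM in replicate 1 and 4.58 TPM in replicate 2 (6.6 ± 2.86 TPM, SD, n = 2). Replicate 1 was the higher, and the values of both libraries lay under those of Slc7a5. Slc7a6 was below Slc7a5 by a log2 difference of -1.87 ± 0.44, or 3.65-fold (limma, adjusted p = 5.53e-05, lower in 2 of 2 libraries). Against Slc7a5, 71.9% of all genes fitted differed and 58.1% were lower. Slc7a6 did not pass the test against the heavy chain, with a log2 difference of -0.71 ± 0.34 (limma, adjusted p = 0.105).

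The summed level of 7 light chains of the SLC7 family (Slc7a5, Slc7a6, Slc7a7, Slc7a8, Slc7a10, Slc7a11 and Slc7a13) was 44.6 TPM in replicate 1 and 34.1 TPM in replicate 2. This was 4.07 and 3.11 times the level of the heavy chain gene Slc3a2. Slc7a5 made up 66.1% and 65.8% of the sum, a share that moved little between the libraries although its own level did.

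Slc7a11 (ENSMUSG00000027737, chromosome 3, 49892526 to 50443614, minus strand) codes for xCT, the light chain that takes up cystine in exchange for glutamate. It had 0 counts in both libraries for each of its 5 annotated transcripts. A count of 0 allows up to 3 counts, or 0.0642 TPM in replicate 1 and 0.0648 TPM in replicate 2 at the 2419 bases of the shorter of its coding transcripts. At that length Slc7a11 was at least 171-fold and at least 169-fold lower than Slc3a2, and at least 459-fold and at least 346-fold lower than Slc7a5, in replicates 1 and 2. These limits are per library, hold for the coding transcripts and cover counting error alone. The deposited posterior mean TPM, over all transcripts of a gene, averaged 0.2 for Slc7a11 and 10.445 for Slc3a2. The limits do not extend to that measure.

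The promoters of the 10 genes were searched for the C/EBP-ATF response element, the motif that ATF4 binds with a C/EBP partner. Of the 10 genes, 7 had at least 1 promoter in the RefSeq table (GRCm38.p6), 9 windows in all, each from 250 bases before to 50 bases after a start. Slc7a5, Slc1a5 and Slc38a1, which are among the 5 highest of the 10 genes, were not searched, so the matches cannot be set against level. Of the 7 genes searched, Slc7a11 and Slc1a4 held the motif. The motif TGATGNAA, searched on both strands, was in 3.97% of all 32851 promoter windows of that length. The 120 bases before the Slc7a11 start (chr3:50443614-50443733, minus strand) and the 100 bases before and 10 bases after the Slc1a4 start (chr11:20332704-20332813, minus strand) are shown to place these matches, which stand in capitals.

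Slc7a11 promoter: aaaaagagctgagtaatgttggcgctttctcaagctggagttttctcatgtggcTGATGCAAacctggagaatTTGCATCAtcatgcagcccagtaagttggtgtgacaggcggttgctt

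Slc1a4 promoter: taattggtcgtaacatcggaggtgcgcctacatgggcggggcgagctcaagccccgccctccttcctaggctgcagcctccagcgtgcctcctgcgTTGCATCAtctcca

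The Slc7a11 window held 2 copies on opposite strands, at -66 to -59 and -47 to -40 from the start, and the Slc1a4 window held 1 on the opposite strand, at -4 to 4. Both other motifs that were searched, again on both strands, fell elsewhere. The E-box CACGTG, found in 7.15% of all windows, was in that of Slc43a1 at -64 to -59. The antioxidant response element TGACNNNGC, found in 12.4% of all windows, was in those of Slc43a1, Slc7a1, Slc7a6 and Slc38a2. The motifs did not overlap one another in these windows. These motifs were chosen after the levels were known, and a match describes the letters alone.

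Slc7a1 (ENSMUSG00000041313, chromosome 5, 148327410 to 148399904, minus strand) codes for CAT1, which takes up arginine and lysine without a heavy chain. It was at 8.44 TPM in replicate 1 and 13.54 TPM in replicate 2 (11.0 ± 3.61 TPM, SD, n = 2). Replicate 2 was the higher, and the Slc7a1 values lay on either side of those of Slc3a2. In replicate 2, 2.46 of the 13.54 TPM came from 25.9 counts on a coding transcript of 675 bases. The main transcript, ENSMUST00000048116, was at 8.44 and 11.02 TPM. Slc7a1 was below Slc7a5 by a log2 difference of -1.19 ± 0.38, or 2.28-fold (limma, adjusted p = 0.00334, lower in 2 of 2 libraries). CPM without the correction for length gave a log2 difference of -0.33 (limma, adjusted p = 0.269).

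Slc1a5 (ENSMUSG00000001918, chromosome 7, 16781340 to 16798274, plus strand) codes for ASCT2, a sodium-dependent exchanger of neutral amino acids best known for glutamine. It was the highest of the 10 genes in each library, at 39.52 TPM in replicate 1 and 49.21 TPM in replicate 2 (44.4 ± 6.85 TPM, SD, n = 2), from 1897 and 2176 counts. Its level was above that of 92.6% and 94.4% of protein-coding genes. Most of it was assigned to a transcript annotated as a retained intron and not as protein-coding, ENSMUST00000127401, at 24.39 and 32.88 TPM. The protein-coding transcript, ENSMUST00000108496, was at 9.04 and 5.5 TPM. By protein-coding transcripts alone Slc1a5 stood 6th of the 10 genes in replicate 1 and 7th in replicate 2, and Slc38a2 stood 1st in both. Slc1a5 has 7 annotated transcripts and Slc38a2 has 1, which is coding, so this measure could lower Slc1a5 but not Slc38a2.

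The retained intron is intron 7 of 8 of the coding transcript, 71 bases long (chr7:16795953-16796023, plus strand), and the exons on both sides are coding. Its ends are shown with 20 bases of each exon in capitals, beside the joined exons, to show which letters set the transcripts apart at this point.

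Slc1a5 5′ junction: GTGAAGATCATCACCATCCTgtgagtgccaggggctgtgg

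Slc1a5 3′ junction: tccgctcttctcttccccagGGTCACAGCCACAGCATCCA

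Slc1a5 spliced: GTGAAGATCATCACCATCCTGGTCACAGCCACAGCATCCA

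The intron opens with gt and closes with ag. The transcripts share most other bases, and the deposited counts divide shared reads between them by estimation, so the shares carry an error beyond that of counting. The retained-intron transcript took 70.3% of the Slc1a5 counts in replicate 1 (95% exact binomial interval 68.2 to 72.4%) and 81.9% in replicate 2 (80.3 to 83.5%).

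Slc1a4 (ENSMUSG00000020142, chromosome 11, 20302180 to 20332713, minus strand) codes for ASCT1, the relative of ASCT2 that carries alanine, serine, cysteine and threonine. It was at 1.44 TPM in replicate 1 and 0.6 TPM in replicate 2 (1.02 ± 0.594 TPM, SD, n = 2), from 110 and 46 counts. It was the lowest of the 9 transporter genes with any count in both libraries. Slc1a4 was below Slc1a5 by a log2 difference of -4.51 ± 0.80, or 22.8-fold (limma, adjusted p = 3.39e-07, lower in 2 of 2 libraries), where 84.7% of all genes fitted differed from Slc1a5, 77.2% being lower and 7.43% higher. With protein-coding transcripts alone the log2 difference was -2.03 (limma, adjusted p = 0.0187).

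Slc38a2 (ENSMUSG00000022462, chromosome 15, 96687392 to 96699730, minus strand) codes for SNAT2, a sodium-coupled importer of small neutral amino acids and a well-known target of the amino acid response. It was at 34.75 TPM in replicate 1 and 31.04 TPM in replicate 2 (32.9 ± 2.62 TPM, SD, n = 2), all from 1 protein-coding transcript. Its neighbour Slc38a1 (ENSMUSG00000023169, chromosome 15, 96571418 to 96642913, minus strand) codes for SNAT1, an importer of glutamine and alanine. Slc38a1 was at 21.76 TPM in replicate 1 and 20.07 TPM in replicate 2 (20.9 ± 1.20 TPM, SD, n = 2). The ranges of these genes did not overlap, with Slc38a2 the higher in each library.

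Slc38a1 was below Slc38a2 by a log2 difference of -0.63 ± 0.25, or 1.55-fold (limma, adjusted p = 0.0313, lower in 2 of 2 libraries), where 81.9% of all genes fitted differed from Slc38a2, 70% being lower and 11.8% higher. The call was lost without a variance trend (limma, adjusted p = 0.0830) and with the reference gene's own variance added (limma, adjusted p = 0.0913). In counts alone the genes were alike, with 3231 and 2909 for Slc38a1 and 3199 and 2841 for Slc38a2, since the Slc38a1 transcripts are longer, at 7059 to 7752 bases against 4626 bases. Slc1a5 did not pass the test against Slc38a2 over all transcripts, with a log2 difference of 0.41 ± 0.23 (limma, adjusted p = 0.106). With protein-coding transcripts alone the difference turned to -2.07 (limma, adjusted p = 0.00128, lower in 2 of 2 libraries). That measure could lower Slc1a5, with 7 annotated transcripts, but not Slc38a2, with 1.

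Slc43a1 (ENSMUSG00000027075, chromosome 2, 84838850 to 84863594, plus strand) codes for LAT3, which lets large neutral amino acids pass without sodium and without a heavy chain. It was at 23.29 TPM in replicate 1 and 23.66 TPM in replicate 2 (23.5 ± 0.262 TPM, SD, n = 2). Its values fell inside the range of Slc7a5, the other leucine carrier, and the log2 difference between these genes was -0.13 ± 0.34 (limma, adjusted p = 0.741), with opposite signs in the libraries. In all, 8 of 10 listed pairs could be tested, since Slc7a11 fell under the filter of a mean of 1 TPM, and 5 of the 8 passed. With the reference gene's own variance added 4 passed, and the share of all genes that differed was then 42.8% against Slc3a2, 65.8% against Slc7a5, 81.8% against Slc1a5 and 74.1% against Slc38a2.

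**Figure D2:**
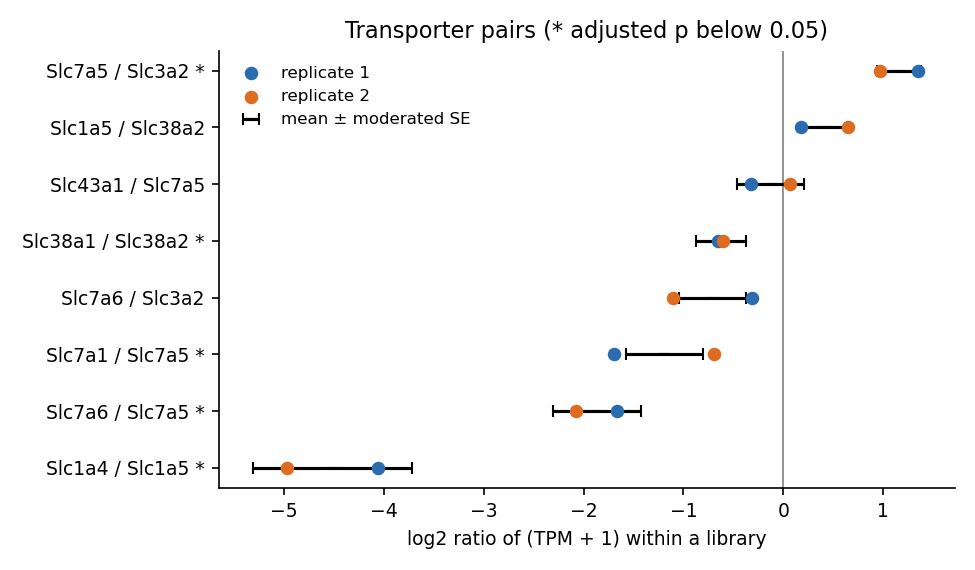
Log2 ratio of (TPM + 1) within a library for 8 pairs of transporter genes, with replicate 1 in blue, replicate 2 in orange and bars for the mean ± the moderated SE of limma. Slc43a1 / Slc7a5 is the pair whose points lie on either side of 0, and Slc1a4 / Slc1a5 lies farthest from it, at a mean of -4.51.

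The transcripts to which a gene's counts were assigned differed between the libraries for several of the genes. Of the Slc38a1 counts, transcript ENSMUST00000088452 held 76.8% in replicate 1 (95% exact binomial interval 75.3 to 78.3%) and 36.6% in replicate 2 (34.8 to 38.4%). Another Slc38a1 transcript, ENSMUST00000088454, had 0 counts in replicate 1 and 1409 in replicate 2. The third, ENSMUST00000100262, had 749 and 437. In GENCODE M21 these 3 transcripts of 16 exons share the same coding sequence of 1455 bases and start from different first exons, at 96642491 to 96642913, 96642128 to 96642250 and 96641054 to 96641962 of chromosome 15. The difference therefore lay outside the coding part.

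For Slc43a1, the share of transcript ENSMUST00000111625 was 80.3% in replicate 1 and 39.9% in replicate 2, and ENSMUST00000111624 had 0 counts in replicate 1 and 504 in replicate 2. The coding sequence of the first is 78 bases longer at its start, 26 residues. A retained-intron transcript of Slc43a1 was alike in both libraries, at 2.99 and 3.08 TPM. For Slc3a2 the leading transcript took 95.1% and 100% of the counts, and for Slc7a1 it took 100% and 98.3%. By TPM the leading Slc7a1 transcript held 100% and 81.4%, since another transcript with few counts is short. Slc7a5 was at 100% in both, and Slc38a2 and Slc7a6 have 1 annotated transcript each. All Slc1a4 counts lay in 1 of 2 coding transcripts, that with 1356 coding bases. The other, with 1596 coding bases, had 0 counts in both libraries.

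By Fisher's exact test on the leading transcript's counts, which takes the estimated counts as observed and covers counting error alone, 5 of the 6 transporter genes tested differed between the libraries, and 5716 of 7354 genes with several transcripts, 77.7%, did so too. The adjusted p was 2.42e-227 for Slc38a1, 1.16e-94 for Slc43a1 and 8.03e-18 for Slc1a5. A difference of 20 percentage points or more was seen in 37.9% of all genes tested and in Slc38a1 and Slc43a1 among the transporters, at -40.2 and -40.4 points (replicate 2 minus replicate 1). The median absolute difference over all genes tested was 13.0 points, and Slc1a5 lay close to it at 11.6 points. The count of transporters called was thus near the background.

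**Figure D3:**
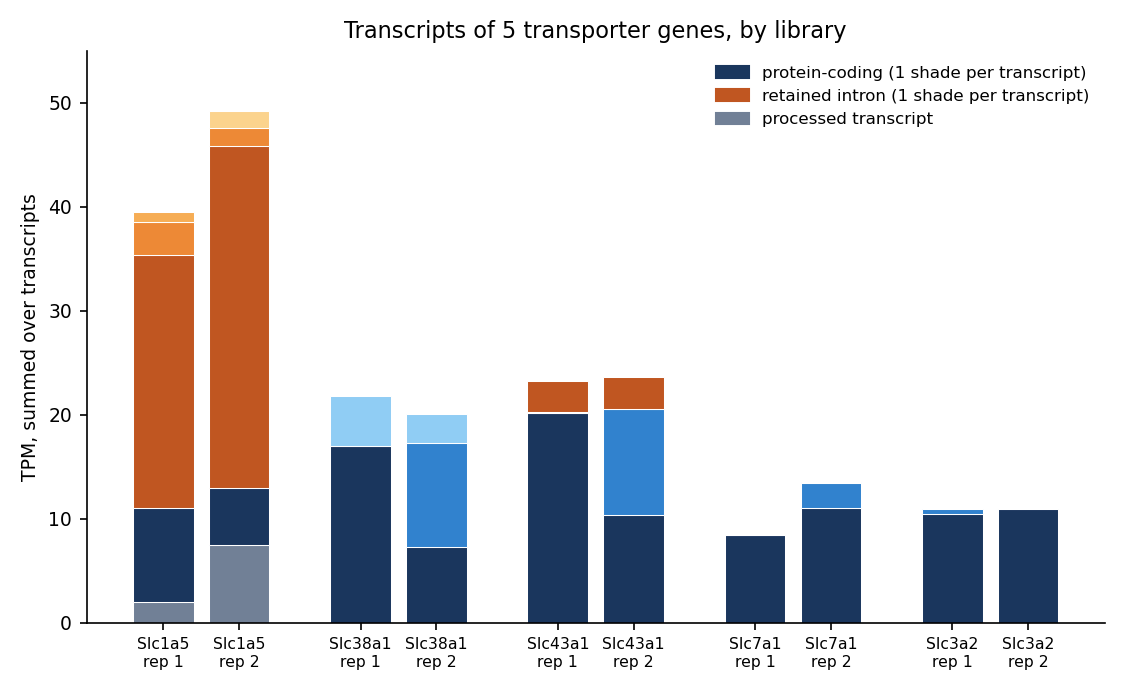
Level in TPM (y axis, stacked by transcript) of 5 transporter genes in each library, with protein-coding transcripts in blue shades, retained-intron transcripts in orange shades and processed transcripts in grey. The largest block of Slc1a5 is the retained-intron transcript, at 24.39 and 32.88 TPM, and both Slc38a1 and Slc43a1 show a middle blue transcript in replicate 2 alone, at 9.96 and 10.26 TPM.

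The libraries were compared gene by gene with an exact binomial test of the counts after TMM scaling, which compares these libraries and covers counting error alone. Of 9 transporter genes tested, 7 were called, against 78.2% of all 13616 genes tested, 37.5% being higher in replicate 1 and 40.7% in replicate 2. Slc7a6 was higher in replicate 1 by 1.93-fold (adjusted p = 1.54e-22) and Slc7a5 by 1.35-fold (adjusted p = 5.78e-18). Slc1a4 was higher in replicate 1 by 2.44-fold (adjusted p = 3.00e-07), and it was the one transporter past 2-fold, a size reached by 30.3% of all genes tested. Slc38a1 (1.13-fold) and Slc38a2 (1.15-fold) were also higher in replicate 1.

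Slc7a1 was higher in replicate 2 by 1.30-fold (adjusted p = 1.46e-11), as was Slc1a5 by 1.13-fold (adjusted p = 0.000262). Slc3a2 (log2 ratio -0.04, adjusted p = 0.662) and Slc43a1 (log2 ratio 0.00, adjusted p = 1) were not called, though scaling by total counts gave Slc43a1 a log2 ratio of 0.20 with a call (adjusted p = 0.000864). The median absolute log2 ratio was 0.20 for the transporters and 0.51 for all genes tested. These medians were not matched for counts, and ratios spread more widely at low counts. Among genes with 300 or more counts in both libraries, 74.1% were called and 2.52% passed 2-fold, and of the 8 transporter genes at that depth 6 were called and 0 passed 2-fold. Scaling by total counts moved the median log2 ratio of all genes tested from 0.03 to 0.23, the share of calls higher in replicate 2 from 52.0% to 66.3%, and the log2 ratios of Slc38a1 and Slc38a2 to 0.02 and 0.00, where neither was called. With a common dispersion of 0.576 taken from the spread over all genes, edgeR's exact test called 0 of the 13616 genes, with 1541 genes but 0 transporters at an unadjusted p under 0.05.

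**Figure D4:**
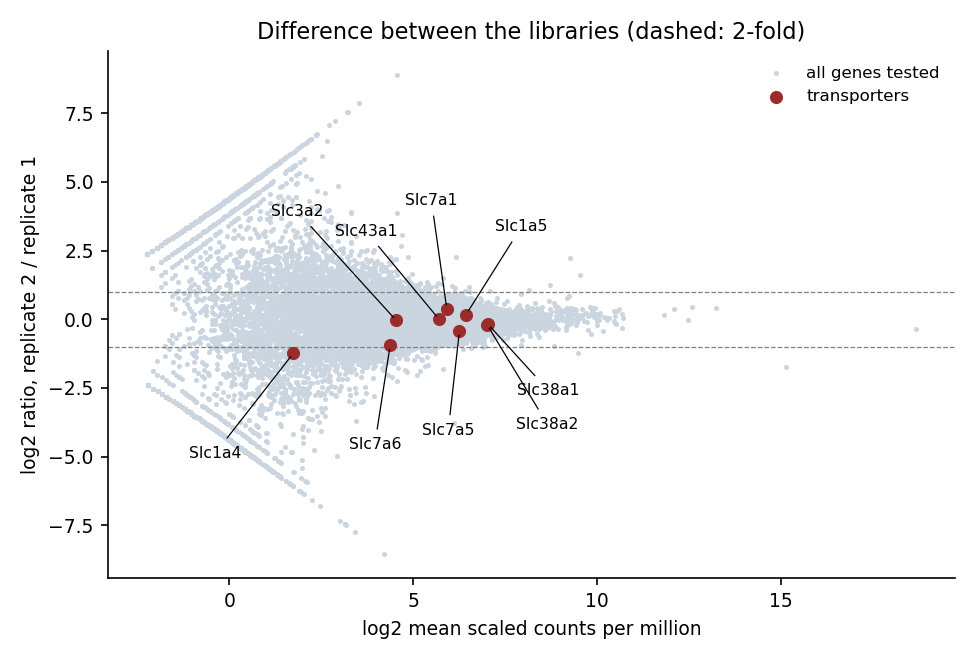
Log2 ratio of replicate 2 to replicate 1 (y axis) against the log2 mean of scaled CPM (x axis) for all 13616 genes tested (grey) and 9 transporter genes (red, named), with dashed lines at 2-fold. Slc1a4 is the one transporter beyond a dashed line, and the grey cloud narrows as the counts grow.

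Beside the 10 genes, 38 other transporter genes of the same families and of the SLC6, SLC16 and SLC36 families were read from a list. Of these, 13 reached 1 TPM in both libraries and 18 had 0 counts in both, and the list's median was 0 TPM in each library. Ranked with them, Slc1a5 stood 3rd of 48 in replicate 1 and 1st in replicate 2, Slc38a2 4th and 2nd, Slc7a5 5th and 6th, Slc43a1 7th and 4th, and Slc38a1 8th and 7th. Slc38a10 (55.67 and 25.46 TPM) and Slc43a3 (40.55 and 22.56 TPM), which codes for a carrier of purine bases, stood above Slc1a5 in replicate 1 and below it in replicate 2.

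The list held close relatives of each group. Of 6 genes for the other heavy chain and for further light chains, 2 reached 1 TPM in both libraries, Slc7a8 (5.36 and 3.35 TPM), which codes for the light chain LAT2, and Slc7a7 (1.15 and 3.72 TPM), which codes for y+LAT1. The kidney heavy chain gene Slc3a1 was at 0 and 0.16 TPM, and Slc7a9, Slc7a10 and Slc7a13 had 0 counts. Of 4 other genes of the cationic branch, Slc7a4 (6.94 and 9.02 TPM) reached 1 TPM, and Slc7a2, Slc7a3 and Slc7a14 stayed at or under 0.01 TPM. All 5 other SLC1 genes, which code for the glutamate transporters of nerve and epithelial cells, had 0 counts in both libraries, Slc1a1, Slc1a2, Slc1a3 and Slc1a6 among them. Of 9 other SLC38 genes, 5 reached 1 TPM, led after Slc38a10 by Slc38a5 (28.58 and 15.62 TPM), Slc38a9 (6.81 and 6.24 TPM), a lysosomal arginine sensor, and Slc38a7 (3.47 and 7.41 TPM), while Slc38a3, Slc38a4, Slc38a8 and Slc38a11 had 0 counts. Of 14 genes of the SLC43, SLC16, SLC36 and SLC6 families, 5 did, among them the taurine transporter gene Slc6a6 (15.78 and 10.25 TPM), Slc43a2 (15.2 and 7.48 TPM), which codes for LAT4, and Slc16a10 (10.19 and 7.29 TPM), which codes for a carrier of aromatic amino acids. Slc36a4 (0.52 and 0.4 TPM) and Slc36a2 (0.05 and 0 TPM) were under 1 TPM in both libraries, and Slc36a3 and Slc6a14 had 0 counts.

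Genes listed for the use of glutamine, the sensing of amino acids and export from the lysosome were mostly present. Of 10 genes of glutamine use, 9 reached 1 TPM in both libraries, with medians of 27.1 and 23.6 TPM. Among the higher ones were the transaminase gene Got2 (73.26 and 59.98 TPM), the pyrimidine synthesis gene Cad (36.87 and 40.06 TPM) and the glutamine synthetase gene Glul (36.88 and 38.18 TPM). Of 30 genes through which mTORC1 senses amino acids, 27 reached 1 TPM, with medians of 10.5 and 10.2 TPM. Sec13 (38.85 and 43.55 TPM), of the GATOR2 complex, and Lamtor5 (37.58 and 35.41 TPM), Lamtor4 (18.65 and 50.39 TPM) and Lamtor1 (36.59 and 21.2 TPM), of the Ragulator scaffold, were the highest, and the GTPase gene Rragd had 0 counts. Of 5 genes of lysosomal export, 3 reached 1 TPM in both libraries, and Slc15a3 had 0 counts. The highest were Slc15a4 (7.93 and 14.12 TPM), Slc29a3 (12.7 and 6.09 TPM), Ctns (5.57 and 7.55 TPM) and Pqlc2 (10.02 and 0.55 TPM). Of these, Slc29a3 codes for a carrier of nucleosides and not of amino acids.

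Of 15 genes of the amino acid response, 10 reached 1 TPM in both libraries, with medians of 3.55 and 9.93 TPM. Atf4 itself was at 57.53 and 61.99 TPM, the asparagine synthetase gene Asns at 75.89 and 39.61 TPM, and the serine and glycine synthesis genes Shmt2 and Phgdh at 55.83 and 56.84 TPM and at 44.47 and 47.74 TPM. Chac1, Nupr1 and Trib3, further targets of ATF4, were each under 1 TPM in both libraries. The listed genes of this response thus stood at both high and low levels. Slc7a11, at 0 counts, and Slc1a4, at 1.44 and 0.6 TPM, were near the lower of them.

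Of 9 genes listed under glutathione synthesis, some of which act in its use or control, 7 reached 1 TPM, with medians of 15.6 and 16.04 TPM. The carrier from Slc7a11 supplies cystine, a source of cysteine for this synthesis. The lipid peroxide reductase gene Gpx4 was at 151.63 and 216.56 TPM, both subunit genes of the enzyme for the first step, Gclm and Gclc, at 74.25 and 37.72 TPM and at 23.38 and 16.04 TPM, and the antioxidant factor gene Nfe2l2 at 46.8 and 42.71 TPM. Cbs and Cth, which code for the enzymes that make cysteine from methionine, had 0 counts in both libraries, as had Slc7a11.

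**Figure D5:**
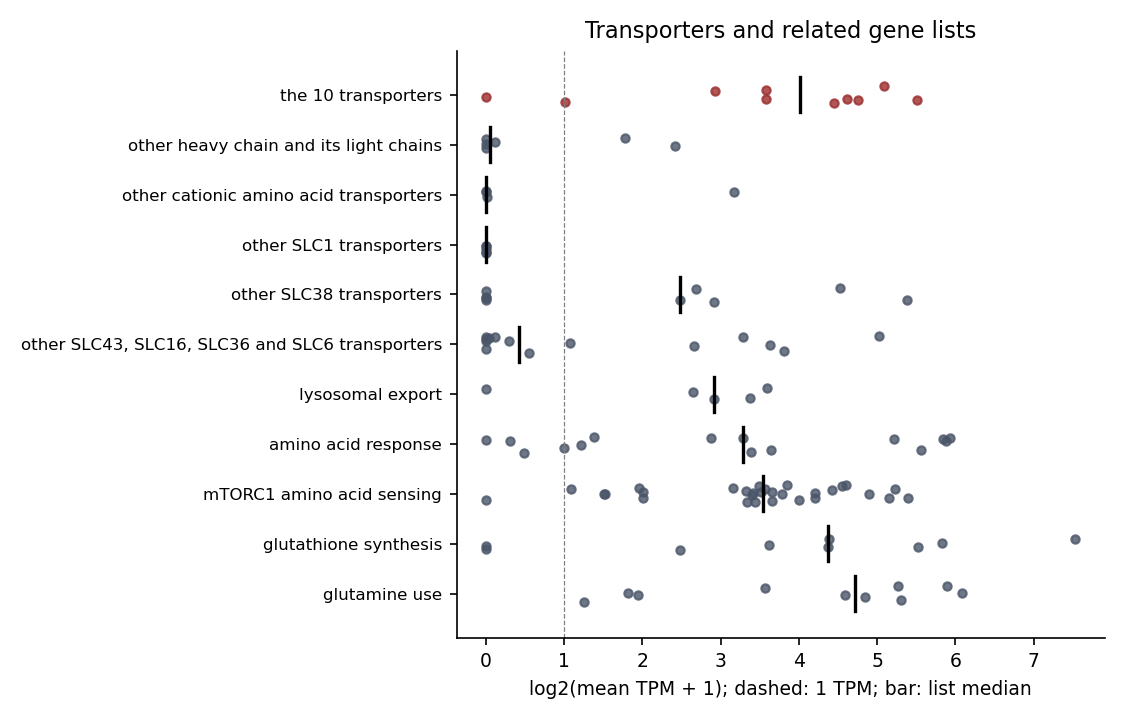
Mean level of each gene on the scale of log2(TPM + 1) (x axis) for the 10 transporters (red) and 10 lists of related genes (grey), 1 point per gene, with a bar at each list's median and a dashed line at 1 TPM. All other SLC1 genes lie at 0, and 8 of the 10 transporters lie well to the right of the dashed line.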

How the data were processed

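The authors deposited 1 gene table and 1 transcript table per library, made on mouse build mm10 with GENCODE M4, per the file headers. The headers name no aligner or quantifier. The deposited expected counts divide shared reads among genes and transcripts and were rounded for tests. The deposited TPM values are length-corrected, posterior mean TPM values were an alternative, and the deposited percent of each isoform was read with them. Symbols, biotypes and coordinates came from GENCODE M21 (GRCm38), which matched 42462 of 43346 genes. tRNA, spike-in and phiX entries were left out of tests.

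Pairs were tested with limma 3.58.1 (R 4.3.3) on log2 ratios of TPM + 1 over 10380 protein-coding genes with a mean of 1 TPM or more. Libraries were compared with an exact binomial test on counts scaled by edgeR 4.0.16 (at least 10 counts in either library), and leading transcripts with Fisher's exact test at 50 or more counts in each. All tests were two-sided, with Benjamini-Hochberg adjustment over all genes of a fit and a threshold of 0.05. On simulated counts with counting error alone, the binomial test called 0.038% of unchanged genes and Fisher's exact test 0.875%. Those settings lacked the spread between real libraries and the error of dividing reads, so they give no error rate for these data. The simulated pair test called 55.1% of genes at a log2 difference of about 1, so pairs that did not pass may still differ. The members and lists were chosen with earlier results of these data known. Named were all 10 transporters, all pairs listed and, per list, the 4 highest genes and up to 4 under 1 TPM, except 1 gene that is not reported here. The motifs, the protein-coding alternative and the reference variance were chosen after seeing the data.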

Additional observations from a re-analysis of the deposited data

How the results depend on the processing

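The count of transporters detected stayed between 8 and 9 with either library left out, and between 7 and 9 at 0.5 or 5 TPM, with posterior mean or rescaled TPM and with protein-coding transcripts alone. Of the 8 pairs tested, 4 to 6 passed under each alternative, though not always the same pairs. With no filter both pairs of Slc7a11 passed too, 7 of 10 in all. At 0 counts Slc7a11 has no spread, so its ratios reflect the level of the reference gene alone and add no support. Without length correction, Slc38a1 against Slc38a2 (log2 difference 0.0240, limma, adjusted p = 0.884) and Slc7a1 against Slc7a5 (-0.33, limma, adjusted p = 0.269) were lost. Slc1a5 against Slc38a2, at 0.41 and not called in the main fit, then passed in the other direction (-0.56, limma, adjusted p = 0.00128). It also passed in that direction with protein-coding transcripts alone (-2.07), a measure that could lower Slc1a5 but not Slc38a2. Slc43a1 against Slc7a5 was 0.0720 without replicate 1 and -0.33 without replicate 2. Between the libraries, 7 transporters were called with DESeq2 size factors or no count minimum, 6 with total-count scaling, under which the log2 ratios of Slc38a1 and Slc38a2 were 0.0229 and 0.0031 without a call and Slc43a1 gained one (0.20, adjusted p = 0.000864), and 0 by edgeR's exact test with a common dispersion, which adds the spread over all genes to counting error (0 transporters and 1541 genes at an unadjusted p under 0.05). Leading transcripts differed in 4 or 5 transporters under each alternative. No paired analysis was possible because both libraries belong to 1 group. With 2 pools of 100 cells, spread between animals was not measured, and levels near 1 TPM, such as that of Slc1a4, rest on few counts.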
